A study of Mus musculus with 2 samples.

Results

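The genes examined here encode the subunits of the transcription factor NF-kB, the inhibitors that hold it back and feedback genes that it is known to induce. They were chosen by gene symbol. Nfkb1, Nfkb2, Rela and Relb encode subunits, Nfkbia, Nfkbib, Nfkbie and Bcl3 encode proteins of the IkB kind, Ikbke encodes a kinase of the pathway and Tnfaip3 encodes a brake on it. All 10 genes were found among the 20002 genes measured.

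The study asked what follows in the kidney when Regnase-2, an RNase of the Regnase family encoded by Zc3h12b, is lowered. Whole mouse kidney was profiled by poly(A) RNA-seq in 2 libraries, 1 control and 1 Reg-2 CKO. The Reg-2 CKO mice, called conditional knockouts of the proximal tubule, were made by knockdown, with AAV9 that carried shRNA against Regnase-2 given through the tail vein at 11 weeks of age. The control mice received control AAV9, described as control shRNA in the RNA-seq methods and as an empty vector in the AAV9 methods. The AAV9 methods give the preference of AAV9 for proximal tubules, and no tubule promoter was named for the shRNA. The RNA-seq methods give an age of 14 weeks, the AAV9 methods give harvest at 16 weeks, and the RNA came from left kidney. The sources used here do not say whether a library came from 1 mouse or from a pool, and the labels name no further treatment for either group.

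NF-kB is a dimer of Rel-family subunits that IkB proteins keep in the cytoplasm of a resting cell. Signals from receptors such as those for TNF, IL-1 and bacterial products activate the IKK kinase complex, which marks IkB for destruction and frees the dimer to enter the nucleus. Among the genes it then switches on are several of its own subunits, its inhibitors and Tnfaip3, so the pathway is known for negative feedback, and in the kidney it is known for driving inflammatory genes in tubule cells and leukocytes.

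The authors called their values normalized counts. They were whole numbers, none below 35 for the control or below 51 for the library labelled CKO, and they were read as reads plus a floor of 34 and of 50, which was subtracted. That the remainder is reads is an inference from the values. Control reads then numbered 38851231, with a median of 284 per gene, and the library labelled CKO had 43588721, with a median of 513.5. The reads of the library labelled CKO were multiplied by 0.667, the median gene ratio of control to CKO, and log2 ratios were taken after adding 1 to both values. A gene was kept if either library had 10 scaled reads or more, which left 17469 genes and all 10 NF-kB genes. Each 95% interval is an exact Clopper-Pearson interval. It covers counting error only, depends on the inference about reads and says nothing of the spread between mice. With 1 library per group no difference below has a replicate check, and no test between the groups was possible.

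Zc3h12b, the target of the shRNA, had 47 control reads and 59 from the library labelled CKO. The log2 ratio was -0.25 with an interval from -0.83 to 0.33, and it turned to 0.16 with equal totals. In the main scaling the interval held 0 and did not reach a 2-fold lower level, so a fall of that size in the mRNA of whole kidney was not seen. Smaller falls lay inside the interval. These mRNA counts thus did not bear out the label, and directions below belong to the library labelled CKO. The AAV9 methods state that knockdown was assessed by immunofluorescence, a measure of protein that is not part of these data.

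Of the 10 NF-kB genes, 9 were higher and 1, Nfkbib, was lower in the library labelled CKO, against 51.5% of all genes kept that were higher. Nfkbib too was higher when the totals of the libraries were made equal. At least 2-fold higher were 6 of the 10, against 13.4% of all genes kept, and at least 2-fold lower were 0 of the 10, against 5.35%. Their median log2 ratio was 1.27, against 0.022 for all genes kept. Across all genes kept, 2334 were higher by 2-fold or more and 934 were lower, so that 71.4% of the genes past 2-fold were higher. With equal totals these were 3870 and 437 genes, a share of 89.9%, the median of all genes was 0.44, and 8 of the 10 NF-kB genes were at least 2-fold higher, against 21.9% of all genes. That share was 17.9% for the deposited values unscaled and 5.98% for them scaled, and these shares belong beside the counts given below for each setting. The median of the 10 genes minus the median of all genes was 1.25, a difference that a scaling leaves almost as it is because it shifts all genes alike.

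**Figure D1:**
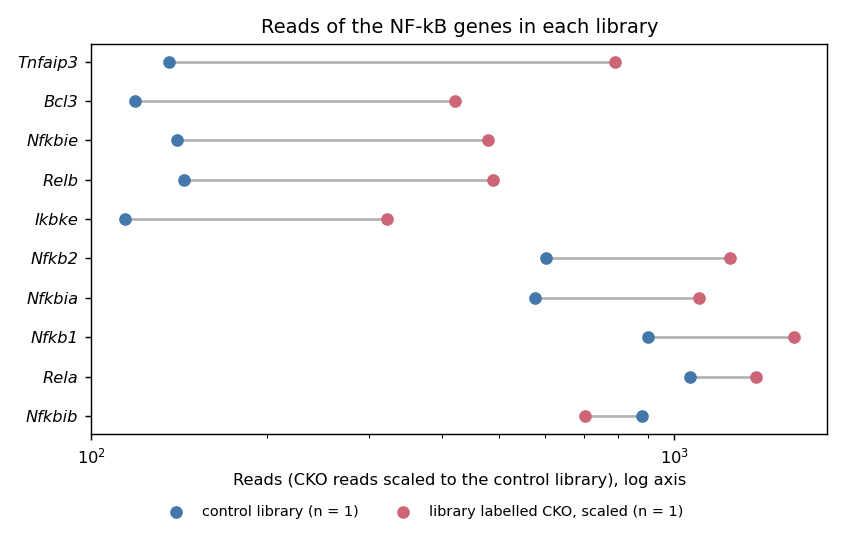
Reads of each of the 10 genes for the control (blue) and, after scaling, for the library labelled CKO (red), on a log axis, with 1 library per group and a grey line that joins the 2 values of a gene. Red lies to the right of blue in 9 genes, with the longest line for Tnfaip3 at 136 and 793 reads, and to the left in Nfkbib at 879 and 703.

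Sites of 10 bases known as kB sites are bound by NF-kB dimers, and the feedback genes of the pathway are known for carrying them. Promoters from RefSeq on GRCm38.p6, from 250 bases before to 50 bases after each start site, were searched on both strands for the kB consensus. They were also searched for the looser motif GGGNNNNNCC, which every match of the consensus also matches. The table held promoters of 8 of the 10 genes, with 11 start sites, and Nfkb1 and Relb were not analysed here for motifs. The consensus was found in 5 of these 8 genes, Nfkb2, Nfkbia, Nfkbie, Bcl3 and Tnfaip3, and it was found in 8.46% of the 32851 promoters of the table and in 9.55% of its 27025 genes. It was not found in the windows of Rela, Nfkbib and Ikbke. The looser motif was found in 6 of the 8 genes, which were the same 5 and Rela, and in 50.8% of all promoters and 53.5% of all genes of the table. All 5 genes with the consensus were higher in the library labelled CKO, with Nfkbia at 1.91-fold and Nfkb2 at 2.06-fold. Without a match, Ikbke was 2.82-fold higher, above those 2 genes, Rela was 1.30-fold higher and Nfkbib was lower. Whether the matches bear on the ratios was not tested. Matches of the 5 genes are shown in the direction of transcription, with the match in capitals and 10 bases on each side.

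Nfkbia: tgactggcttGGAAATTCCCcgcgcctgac
Tnfaip3 near site: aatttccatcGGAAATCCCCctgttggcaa
Tnfaip3 far site: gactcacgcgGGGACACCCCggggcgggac
Nfkbie: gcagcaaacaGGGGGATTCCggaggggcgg
Bcl3: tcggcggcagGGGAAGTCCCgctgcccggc
Nfkb2 upstream site: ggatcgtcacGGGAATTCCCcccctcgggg
Nfkb2 near site: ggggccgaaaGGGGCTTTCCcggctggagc
Nfkb2 site at another start: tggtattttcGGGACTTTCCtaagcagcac

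The Nfkbia window lies on the minus strand at chr12:55492657-55492686, with the match starting 29 bases before the start site. Tnfaip3, on the minus strand of chromosome 10, had matches that start 12 bases before its start, at chr10:19015403-19015432, and 125 bases before it, at chr10:19015516-19015545. The Nfkbie match starts 106 bases before the start, on the plus strand at chr17:45555584-45555613. The Bcl3 match starts at base 3 after the start in the transcribed part of the gene, on the minus strand at chr7:19822734-19822763. Nfkb2 lies on the plus strand of chromosome 19. At 1 of its start sites matches begin 39 bases upstream, at chr19:46304688-46304717, and 11 bases upstream, at chr19:46304716-46304745, and a further match that begins 38 bases upstream overlaps the first of them. At another start site a match begins at base 11 after the start, at chr19:46305695-46305724, and one more lies 236 bases before it. A match describes the letters of the window and does not show that NF-kB was bound there in these kidneys. Across the genes kept that had a promoter in the table, the 1578 with the consensus had a median log2 ratio of 0.12 and the 11354 without it had 0.0059, and 15.5% and 12.9% were at least 2-fold higher. For the looser motif the medians were 0.021 for the 8960 genes with it and 0.016 for the 3972 without, and the shares past 2-fold were 12.8% and 14.3%, so that the order of the shares was the other way round.

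The subunits were higher by very different amounts. Rela, which encodes the main activating subunit, lies at chr19:5637442-5648134 of GRCm38. It had 1066 reads in control against 2076 in the library labelled CKO, or 1384 after scaling. This was 1.298-fold higher, with an interval from 1.21 to 1.40, and the log2 ratio of 0.38 lay inside the middle 50% of all genes kept, which ran from -0.33 to 0.48. Rela was therefore among the genes with little difference between the libraries, and it ranked 5004 of 17469 by its ratio.

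Nfkb1, at chr3:135584655-135691969, encodes the precursor of the partner that Rela pairs with in the classical dimer. Its reads numbered 902 in control and 2408 for the library labelled CKO, or 1605 after scaling. The ratio was 1.78-fold, with an interval from 1.65 to 1.92, so the gene was under 2-fold in the main scaling. It passed 2-fold with equal totals, at a log2 ratio of 1.25, and with the unscaled deposited values, at 1.39. Nfkb2, at chr19:46300994-46312400, encodes the precursor of the subunit of the alternative pathway, and had 603 and 1867 reads, or 1245 after scaling in the library labelled CKO. It was 2.06-fold higher, and its interval from 1.88 to 2.27 held the threshold of 2-fold, so that its count among the 6 genes past 2-fold was within counting error of that threshold.

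Relb, at chr7:19606217-19629438, encodes the subunit that pairs with the product of Nfkb2. It had 144 control reads and 732 from the library labelled CKO, or 488 after scaling. This was 3.39-fold higher, with an interval from 2.83 to 4.08, the highest ratio of the 4 subunits examined. The interval of Relb did not overlap those of Nfkb1, Nfkb2 and Rela.

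The IkB genes differed widely in their ratios. Nfkbia, at chr12:55489409-55492647, encodes the classical inhibitor that is rapidly rebuilt after NF-kB is activated, and its promoter holds the match shown above. Its reads numbered 578 in control and 1654 for the library labelled CKO, or 1103 after scaling. It was 1.91-fold higher, and the interval from 1.73 to 2.10 again held 2-fold. In the main scaling the gene was not counted as past it. Its log2 ratio was 1.35 with equal totals and 1.48 with the unscaled deposited values, both past 2-fold.

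Nfkbib, at chr7:28758251-28766644, encodes a second classical inhibitor. It had 879 reads in control against 1054 in the library labelled CKO, or 703 after scaling. The log2 ratio was -0.32, with an interval from -0.45 to -0.19, but equal totals gave 0.096 and the unscaled deposited values gave 0.27. Its direction thus hung on the scaling, while its place at the bottom of the 10 genes did not, since a scaling shifts the genes together.

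Nfkbie, at chr17:45555700-45563169, encodes the third classical inhibitor, with 1 match in its promoter. It had 140 control reads and 718 from the library labelled CKO, or 479 after scaling. This was 3.42-fold higher, with an interval from 2.85 to 4.13. Of the 3 classical inhibitors, Nfkbie thus had the highest ratio and Nfkbib the lowest, and the 3 intervals did not overlap.

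Bcl3, at chr7:19808462-19822824, encodes an IkB-like protein that works in the nucleus, where it binds dimers made from the products of Nfkb1 and Nfkb2. Its reads numbered 119 in control and 631 for the library labelled CKO, or 421 after scaling. It was 3.54-fold higher, with an interval from 2.90 to 4.34. The intervals of Bcl3, Nfkbie and Relb overlapped widely, so their order was not resolved by these counts.

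Ikbke, at chr1:131254600-131279601, encodes an inducible kinase related to the IKK kinases and to Tbk1. It had 114 reads in control against 483 in the library labelled CKO, or 322 after scaling. This was 2.82-fold higher, with an interval from 2.30 to 3.50, which overlapped those of Relb, Nfkbie and Bcl3.

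Tnfaip3, at chr10:19000910-19015410, encodes a ubiquitin-editing enzyme that shuts off signalling from TNF receptors and Toll-like receptors to IKK. It had 136 control reads and 1189 from the library labelled CKO, or 793 after scaling. This was 5.83-fold higher, with an interval from 4.88 to 7.01, and the log2 ratio was 2.53. Tnfaip3 had the highest ratio of the 10 genes and ranked 366 among the 17469 genes kept. Its interval lay above those of the other 9 genes, and its promoter holds both of the matches shown above.

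**Figure D2:**
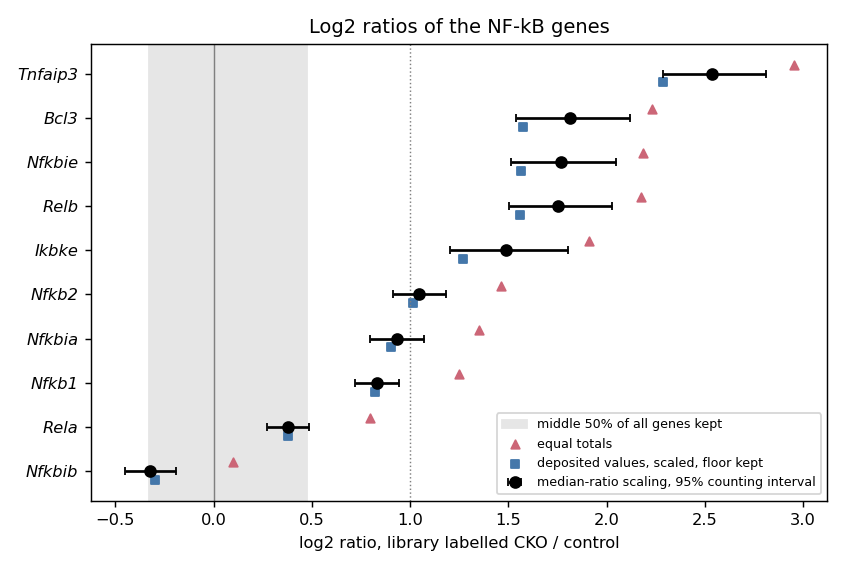
Log2 ratio of the library labelled CKO to the control for each of the 10 genes (black, with the 95% interval for counting error), with the same ratio under equal totals (red triangles) and for the deposited values scaled with the floor kept (blue squares). The grey band holds the middle 50% of all genes kept, from -0.33 to 0.48, the dotted line marks 2-fold, and Nfkbib is the gene whose sign turns, from -0.32 to 0.096 with equal totals.

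Ratios between genes inside 1 library do not depend on how the libraries were scaled, so the 10 genes were also set against Rela in each library. Tnfaip3 had 12.8% of the reads of Rela in control against 57.3% in the library labelled CKO. This was 4.49 times the control ratio, with an exact conditional interval from 3.70 to 5.48, and 3.77 times with the floor kept. Relb was at 13.5% and 35.3% of Rela, or 2.61 times the control ratio. Nfkbie was at 13.1% and 34.6%, or 2.63 times, and Bcl3 at 11.2% and 30.4%, or 2.72 times. Ikbke was at 10.7% and 23.3%, or 2.18 times. For these 5 genes the ratio to Rela was thus between 2.18 and 4.49 times its control value with the floor subtracted. With the floor kept Relb was at 2.27 times, Nfkbie at 2.28, Bcl3 at 2.30 and Ikbke at 1.86 times, so these values depend on the floor. Such ratios of reads compare the libraries, not the levels of the genes.

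The other genes differed less from Rela, or in the other direction. Nfkb1 was at 84.6% of Rela in control against 116% in the library labelled CKO, or 1.37 times the control ratio, with an interval from 1.23 to 1.53. Nfkb2 was at 56.6% and 89.9%, or 1.59 times. Nfkbia was at 54.2% and 79.7%, or 1.47 times, with an interval from 1.301 to 1.66. Nfkbib was the exception in direction, at 82.5% and 50.8%, or 0.616 times, with an interval from 0.547 to 0.693. Relative to Rela, 8 of the other 9 genes had a higher ratio in the library labelled CKO, while Nfkbib had a lower one, whatever the scaling between libraries. Rela itself ranked 5004 of 17469 by its log2 ratio, and 71.4% of all genes kept were at or below it.

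Pairs of genes with related products were compared in the same way. The reads of Nfkbia were 65.8% of those of Nfkbib in control against 157% in the library labelled CKO, which was 2.39 times the control ratio, with an interval from 2.09 to 2.72. Nfkbie was at 15.9% and 68.1% of Nfkbib, or 4.28 times the control ratio, with an interval from 3.48 to 5.27. Relb, against its partner Nfkb2, was at 23.9% and 39.2%, or 1.64 times, with an interval from 1.34 to 2.02. Nfkb2 against Nfkb1 differed little, at 66.9% and 77.5%, or 1.16 times, with an interval from 1.03 to 1.31. Ikbke against the related kinase gene Tbk1 was at 9.68% and 24.4%, or 2.52 times. With the floor kept Nfkbie against Nfkbib was at 3.65 times, Relb against Nfkb2 at 1.46 and Ikbke against Tbk1 at 2.15 times.

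Levels of different genes were compared only per length, as scaled reads per kb of the longest protein-coding transcript and per 1000000 reads of the control library. In the control library the order was Nfkbib at 10.98, Rela at 10.1, Nfkbia at 9.43, Nfkb1 at 5.64 and Nfkb2 at 4.04. Relb at 1.68, Bcl3 at 1.66, Nfkbie at 1.48, Ikbke at 0.903 and Tnfaip3 at 0.792 followed. The counting intervals of neighbours overlapped for Nfkbib and Rela, Rela and Nfkbia, Relb and Bcl3, Bcl3 and Nfkbie, and Ikbke and Tnfaip3, so these pairs were not ordered by the counts. With this choice of length Ikbke and Tnfaip3 had the lowest levels, but with its median transcript length Ikbke was at 3.22 and above Relb and Nfkbie.

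In the library labelled CKO the same level was highest for Nfkbia at 17.99, followed by Rela at 13.1, Nfkb1 at 10.04, Nfkbib at 8.78 and Nfkb2 at 8.33. Bcl3 at 5.85, Relb at 5.69, Nfkbie at 5.06, Tnfaip3 at 4.61 and Ikbke at 2.55 came after them. Overlapping neighbours were Nfkbib and Nfkb2, Bcl3 and Relb, Relb and Nfkbie, and Nfkbie and Tnfaip3. These levels depend on the transcript length taken for each gene. With median transcript lengths Rela was at 34.9 in the control library and above Nfkbib at 18.2.

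On this scale the 5 Rel-family genes, with Rel added to the 4 subunits, summed to 21.7 in control against 37.7 in the library labelled CKO, a ratio of 1.74. Rela made up 46.6% of the sum in control against 34.8% in the library labelled CKO. Relb made up 7.75% and 15.1%, and Nfkb2 18.6% and 22.1%. Nfkb1 was at nearly the same share in both, 26.0% and 26.6%, and Rel was the smallest at 0.955% and 1.52%. The makeup of the subunit mRNAs was thus less weighted to Rela and more to Relb in the library labelled CKO. These shares do not depend on the scaling between libraries, but they do depend on the transcript length. With median lengths, tried after the data were seen, Rela made up 69.1% and 58.4%, Nfkb1 16.6% and 19.3%, Nfkb2 10.6% and 14.2%, Relb 3.33% and 7.36% and Rel 0.409% and 0.741%, and the ratio of the sums was 1.53.

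The 3 classical inhibitors summed to 21.9 in control against 31.8 in the library labelled CKO, a ratio of 1.45. Nfkbib was 50.2% of this sum in control against 27.6% in the library labelled CKO. Nfkbia was 43.1% and 56.5%, and Nfkbie 6.76% and 15.9%. With median lengths the shares were 55.6% and 32.7% for Nfkbib, 39.9% and 55.9% for Nfkbia and 4.52% and 11.4% for Nfkbie, and the ratio of the sums was 1.36.

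**Figure D3:**
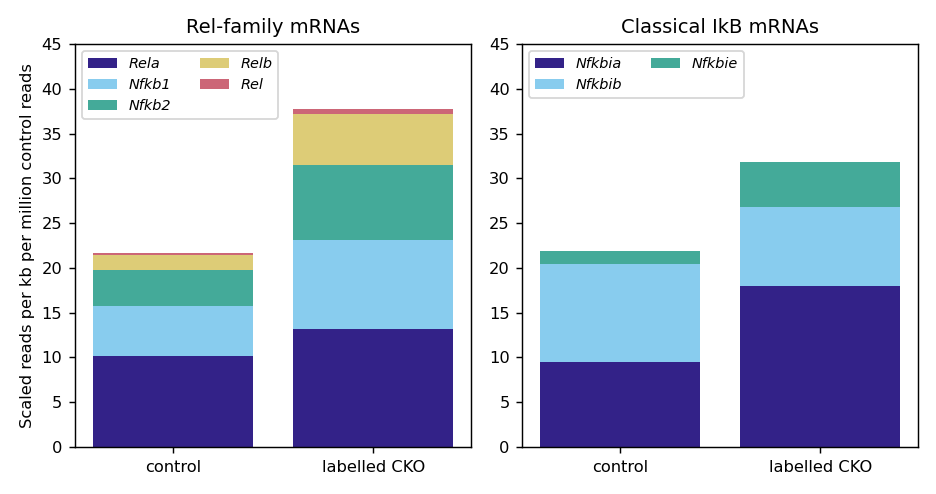
Stacked bars of the 5 Rel-family mRNAs (left) and the 3 classical IkB mRNAs (right), in scaled reads per kb per 1000000 control reads, with 1 library per bar. The Relb part goes from 7.75% to 15.1% of the Rel-family bar and the Nfkbib part from 50.2% to 27.6% of the IkB bar.

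Close relatives outside the 10 genes were also uneven. Of 5 other Rel and IkB-like genes, 3 were higher by 2-fold or more, and the median log2 ratio was 1.46. Nfkbiz, which encodes an inducible nuclear IkB-like protein, had 181 reads in control against 1951 in the library labelled CKO, and its log2 ratio was 2.84. Nfkbid, a related gene, with 6 and 86 reads, had a log2 ratio of 3.06 and an interval from 2.08 to 4.74. It passed the filter only through the library labelled CKO, and it was at 1.17 for the deposited values scaled and at 1.74 for them unscaled. Rel, the subunit gene typical of lymphoid cells, with 60 and 250 reads, had a log2 ratio of 1.46. Nfkbil1 was at 0.20, with an interval that held 0, and Nkrf, which encodes a repressor, was at -0.36, or 0.055 when totals were made equal. Against Rela within each library, Nfkbiz was 5.53 times the control ratio and Rel 2.14 times, beside 4.49 times for Tnfaip3. With the floor kept these were 4.82, 1.65 and 3.77 times.

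Of 13 genes of the IKK complex, related kinases and their adaptors, 0 were past 2-fold in either direction by the log2 ratio with 1 added, and the median was 0.11. By that count 1 was at least 2-fold higher under equal totals and 2 with the unscaled deposited values. Chuk, which encodes a catalytic subunit of IKK, had 5555 reads in control and 5626 for the library labelled CKO, and its log2 ratio was -0.57, which was 0.022 with the values as deposited and unscaled. The other subunits of IKK, Ikbkb and Ikbkg, were at 0.15 and 0.11, and Tbk1 at 0.16. Map3k14, the kinase of the alternative pathway, was at 0.56, and Map3k8 was the highest at 0.99 from 54 and 162 reads, or exactly 2-fold when 1 was not added, on the threshold itself. Between -0.25 and 0.25 lay Map3k7 at -0.011, Tab1 at -0.24, Tab2 at -0.00049, Tab3 at 0.0042, Tank at 0.23, Azi2 at -0.077 and Tbkbp1 at 0.22. With equal totals all 7 of these were above 0, so the sign of Map3k7, Tab1, Tab2 and Azi2 turned. Ikbke was at 1.49, above the 13 values, but its interval from 1.20 to 1.81 overlapped that of Map3k8, from 0.55 to 1.47, so their order was not resolved. Against Ikbkb within each library Ikbke was 2.55 times the control ratio, or 2.17 times with the floor kept.

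Of 26 adaptors and ubiquitin ligases between the receptors and IKK, 5 were at least 2-fold higher, which is 19.2% against 13.4% of all genes kept, among them Birc3 at 1.87, Irak3, Traf1 and Irak4, and the median was 0.23. The count was 8 with equal totals, where 21.9% of all genes were past 2-fold, 10 with the unscaled deposited values, where 17.9% were, and 3 with these scaled, where 5.98% were. The lowest was Fbxw11 at -0.46, which was 0.13 with the values as deposited and unscaled. The most read genes of the list in the control were Fbxw11 and Irak1, with Irak1 at -0.33 but 0.084 with equal totals. Of 9 genes listed as deubiquitinases or partners of Tnfaip3, 1 was at least 2-fold higher, which is 11.1% against 13.4% of all genes kept. This was Usp18 at 2.27, an interferon-induced gene. With equal totals 2 were past 2-fold, where 21.9% of all genes were. The median was -0.016, or 0.40 with equal totals, the most read genes were Tax1bp1 at -0.24 and Rnf11 at -0.54, and Rnf11 was also the lowest. Tax1bp1 was at 0.18 with equal totals and Rnf11 at 0.046 with the values as deposited and unscaled. Tnip1 at 0.76 and Tnip2 at 0.55, both partners of Tnfaip3, lay above the middle 50% of all genes. Tnip3 was not analysed here.

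Of 10 receptors upstream, 7 were at least 2-fold higher, against 13.4% of all genes kept, and 5 were for the deposited values scaled, against 5.98%. Their median was 1.24, with Tlr2 the highest at 2.38. The lowest and most read was Ltbr at -0.16, but 0.26 with equal totals, and next in reads was Tnfrsf1a, the main TNF receptor, at 0.85. Of 7 ligands in the table, with no filter, 4 were at least 2-fold higher, Il1b, Tnfsf13b, Ltb and Lta, and the median was 1.22. With the deposited values scaled 3 were past 2-fold. Il1b was the highest at 2.48, from 33 and 283 reads, or 1.73 with the deposited values scaled. Lta rested on 4 and 16 reads, with an interval from -0.22 to 3.45, and passed the filter only through the library labelled CKO, while Tnfsf12, the most read, was the lowest of those kept at 0.26. Tnfsf11, lower from 5 and 4 reads, had too few to be kept. Tnfrsf13c, Tnf, Il1a and Cd40lg were not analysed here.

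Of 21 genes known as NF-kB targets in other settings, 14 were at least 2-fold higher, against 13.4% of all genes kept. Lower by that much were 0, against 5.35%, and the median was 2.18. This list was chosen with earlier results of these data known, so its count and median describe the list only. The highest was Lcn2, the injury marker NGAL, at 6.45 from 28 and 3797 reads, or 5.36 with the deposited values scaled. The lowest was Sod2, a mitochondrial superoxide dismutase, at -0.70 from 11179 and 10300 reads. The most read targets in the control were Cfb at -0.25, but 0.16 with equal totals, and Plau at 0.78. The median of the 10 NF-kB genes, 1.27, was thus between those of the IKK list and of the targets. Ccl20, Cxcl5, Il6 and Saa3 were not analysed here.

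**Figure D4:**
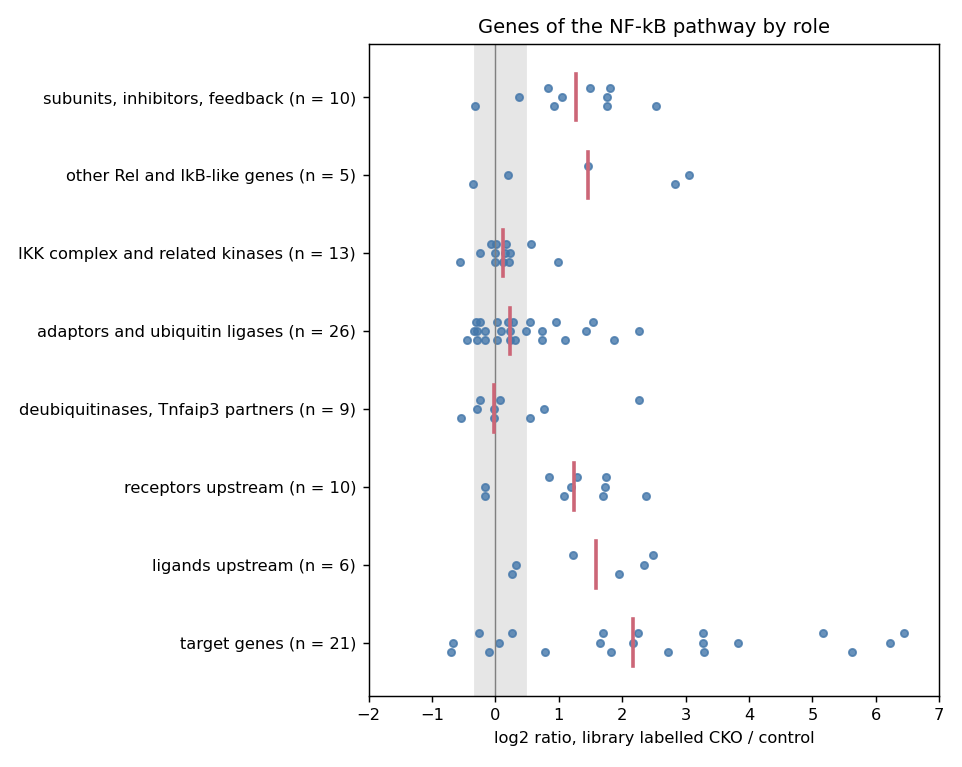
Log2 ratio of the library labelled CKO to the control for each gene kept (points) in 8 groups of the NF-kB pathway, with the median of each group as a red line and the middle 50% of all genes kept as a grey band. The group of 10 NF-kB genes has its median at 1.27, the 13 genes of the IKK complex, related kinases and adaptors at 0.11 and the 21 targets at 2.18.

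Markers of other cell types also differed between the libraries, and in bulk kidney fewer cells of a type and less RNA per cell cannot be told apart. All 12 macrophage markers were higher, 11 of them at least 2-fold, with a median of 2.77. Their summed reads were 6799 in control and 36808, after scaling, for the library labelled CKO, a ratio of 5.41. The most read of them in the control was Cd74 at 2.61, the highest Lyz2 at 3.66 and the lowest Csf1r at 0.51. Macrophages express the genes of the NF-kB pathway too, and the part of these cells in the ratios of the 10 genes was not tested.

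The summed reads of 8 T and B cell markers were 287 in control and 659, after scaling, for the library labelled CKO. Of the 8, 6 were at least 2-fold higher, with a median of 1.69. With the deposited values scaled this was 2 of 8 and a median of 0.58, so the count depended on the floor that was subtracted. Cd3e and Cd8a, both among the 6, passed the filter only through the library labelled CKO, with 6 and 8 reads in the control. Ighm was the most read at 1.67 and Cd3g the highest at 2.22. Trac was the lowest at -0.44, or 0.26 with the values as deposited and unscaled. Of 3 neutrophil markers, Csf3r, the most read and the highest at 2.37, and S100a9 were at least 2-fold higher. S100a8 was the lowest at 0.77. S100a8 had 7 reads in the control and passed the filter only through the other library, and its interval from -0.46 to 2.35 held 0. The median of the 3 was 1.64, and their sums were 42 in control and 173, after scaling, for the library labelled CKO. With the deposited values scaled 1 was past 2-fold and the median was 0.69. The floor leaves every gene at least 1 read, so a marker at 0 could not be seen. The part of lymphocytes and neutrophils was not tested. Cd3d, Ms4a1, Cd79a, Ly6g, Mpo, Elane, Cxcr2, Retnlg, Camp and Ngp were not analysed here.

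Of 10 proximal tubule markers, 9 were lower in the main scaling, with a median of -0.84, or -0.42 with equal totals. At least 2-fold lower were 4 of them, Slc22a6, Slc27a2, Slc34a1 and Miox, against 5.35% of all genes kept. Only 1 of the 10 was at least 2-fold lower with equal totals, where 437 of 17682 genes kept were and where Cubn turned to higher. Their summed reads were 697932 in the control and 367303 after scaling. Slc27a2 was the most read at -1.23, Slc22a6 the lowest at -1.62 and Slc5a12 the highest at 0.41. The 14 markers of other tubules and vessels had 0 genes past 2-fold in either direction and a median of -0.10, or 1 gene at least 2-fold higher and 0.32 with equal totals. Their sums were 160835 in the control and 193412 after scaling, with Umod the most read at 0.47 and Aqp2 the highest at 0.79. The tubule markers were abundant in both libraries, as kidney tissue has them, and the part of a different tubule content in the ratios of the NF-kB genes was not tested.

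**Figure D5:**
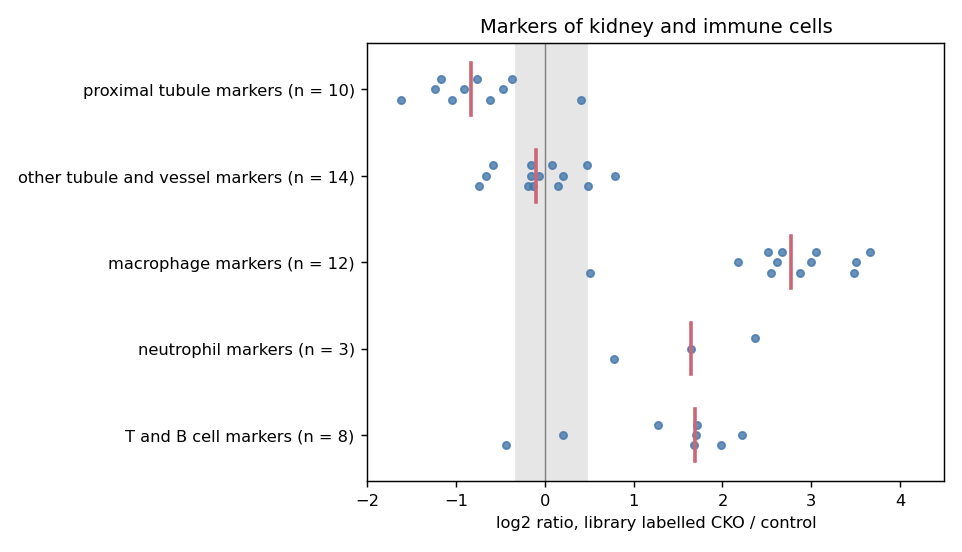
Log2 ratio of the library labelled CKO to the control for markers of kidney and immune cells (points), with the median of each group as a red line and the middle 50% of all genes kept as a grey band. The macrophage markers have their median at 2.77 and the proximal tubule markers at -0.84, the latter at -0.42 with equal totals.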

How the data were processed

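RNA was taken from whole kidney, and libraries were made with a stranded poly(A) kit. Per the submitters' processing notes and the study's methods, the authors aligned reads with STAR 2.7.3a to mm10, used HTSeq for counting and DESeq2 for normalization. Cufflinks 2.2.1, FastQC and edgeR are also named there, and their output was not used here. The unit of the deposited values was taken as a score, since they are whole numbers that the authors called normalized counts without a stated scale. Which step added the floor is not stated, and 0 columns of other samples were present.

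The floor of each column, its lowest value minus 1 (34 and 50), was subtracted, and the CKO reads were multiplied by the median gene ratio of 0.667. Log2 ratios used a pseudocount of 1, the filter was 10 scaled reads in 1 library and the threshold was 2-fold. Folds were taken without the pseudocount. Intervals were Clopper-Pearson intervals at 95% from the CKO share of the reads of both libraries together, and ratios to Rela had the exact conditional interval of the odds ratio. Depth was 38851231 and 43588721 reads. Coordinates came from RefSeq on GRCm38, the assembly that mm10 names, and transcript lengths from GENCODE M21. The longest protein-coding transcript was chosen after the longest transcript of some genes was seen to be a retained intron. The scripts were tested on simulated data first.

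The 10 genes and all gene lists were chosen with earlier results of these data known. Named in each pathway list were the highest and lowest ratio and the 2 most read genes of the control. All genes of the 2 lists nearest the NF-kB genes were named, and in marker lists the most read, highest and lowest. Other genes in counts of 5 or fewer, and those whose sign turned with the scaling, were named after their values were seen. Listed genes without values to use are given as not analysed here, and some listed genes, including ones the naming rule would pick, are not reported here. Alternatives were equal totals, equal upper quartiles, the median log2 ratio set to 0, values as deposited, pseudocounts of 0.1 and 10, no filter or 50 reads, thresholds of 1.5-fold and 4-fold, and other transcript lengths. Deposited values with scaling, and the longest transcript of any kind, were added after the data were seen. Python 3.11.15, numpy 2.4.6, pandas 2.3.3, scipy 1.17.1 and matplotlib 3.10.9 were used.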

Additional observations from a re-analysis of the deposited data

How the results depend on the processing

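No paired analysis was possible because there was only 1 library per group. Of 226 values recomputed under the alternatives, 169 stayed within a counting interval or, for counts of genes, within 1.5 times the main count, and the cause of the other differences was not tested where the setting itself does not give it. Some of the 169 were fixed by construction, since a change of filter does not alter the log2 ratio of a gene that is kept. With equal totals, 3870 genes were at least 2-fold higher and 437 lower. With the values as deposited and unscaled these were 3574 and 131, and with the deposited values scaled, a setting added after the data were seen, 1196 and 463. A threshold of 1.5-fold gave 3801 and 2423 genes, 4-fold gave 749 and 166, and a filter of 50 reads left 617 lower. At 4-fold 1 of the 10 NF-kB genes was higher, Tnfaip3, against 4.29% of all genes kept. At 1.5-fold 8 of the 10 were higher, against 21.8%.

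With equal totals the log2 ratios were 1.25 for Nfkb1, 1.46 for Nfkb2, 0.80 for Rela, 2.17 for Relb, 1.35 for Nfkbia, 2.18 for Nfkbie, 2.23 for Bcl3, 1.91 for Ikbke and 2.95 for Tnfaip3, and Nfkbib turned to 0.096. With the values as deposited and unscaled they were 1.39, 1.59, 0.95, 2.13, 1.48, 2.14, 2.15, 1.84 and 2.86 in the same order, and Nfkbib turned to 0.27. The medians, first with equal totals and then with the unscaled deposited values, were 1.69 and 1.71 for the 10 genes, 0.53 and 0.69 for the IKK list, 0.64 and 0.80 for the adaptors, 0.40 and 0.57 for the deubiquitinases, and 1.66 and 1.65 for the receptors. The median of the targets was 2.60 with equal totals and 1.73 with deposited values scaled, where the ligands, with Tnfsf11 included, were at 0.26. The interval set against the median of a list was that of its middle gene, or the mean of those of its middle 2 genes, so it is wide for lists with few reads such as the ligands, and a median kept by this rule may still differ, as with the ligands at 0.83 for the unscaled deposited values. The median of the 10 genes minus that of all genes was 1.15 with the values as deposited and unscaled, 1.14 with these scaled and 1.21 with a pseudocount of 10. The other scalings and the thresholds leave it almost as it is by construction.

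Levels per kb in the control with the median transcript length were 5.12 for Bcl3, 3.22 for Ikbke, 8.40 for Nfkb1, 5.34 for Nfkb2, 13.1 for Nfkbia, 18.2 for Nfkbib, 34.9 for Rela and 1.37 for Tnfaip3. With the longest transcript of any kind they were 0.501 for Ikbke, 1.20 for Nfkbie, 1.13 for Relb and 0.565 for Tnfaip3. The shares of the Rel-family and IkB sums with other lengths were added after the data were seen. With the longest transcript of any kind Relb made up 5.37% of the Rel-family sum in control against 10.7% in the library labelled CKO. Depth limits the genes with few reads, such as Nfkbid with 6 reads in the control, and the spread between mice cannot be estimated from 1 library per group.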
